A study of Mus musculus with 8 samples.

Results

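Nell1 and Nell2 are the paired genes of the mouse NELL family, and they were followed here in dorsal root ganglia (DRG) in which Dach1 had been switched on throughout the sensory neurons. The 2 genes were taken by name from 55414 counted Ensembl genes. They were chosen from measured values of the same comparison, because Nell1 was strongly lower there, and Nell2 was taken along as its only close relative. The difference between the genotypes in these genes is therefore given as a description, without a p-value. Both passed the filter on low counts, among 17721 genes that were tested.

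NELL proteins are large secreted glycoproteins of neurons and of developing bone. Each carries a thrombospondin-type N-terminal domain, von Willebrand factor C domains and a row of EGF-like repeats, and the protein acts outside the cell by binding receptors on neighbouring cells or axons. Nell2 is known as a ligand that repels commissural axons through Robo3 in the spinal cord and that also binds Robo2. Nell1 is known from bone and cartilage formation, where integrin beta1, the neuronal adhesion protein Cntnap4 and Atraid have been described as its binding partners.

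Transcripts were measured by bulk RNA-seq of whole ganglia, which hold neurons and glia, from mouse embryos at E18.5. The group called AD1 OE (for overexpression) had the genotype AdvillinCre/+;Rosa26Dach1/+, in which Cre is driven from the sensory neuron gene Advillin and removes a stop before a Dach1 copy, followed by EGFP, at the Rosa26 locus. The Control group had the genotype Advillin+/+;Rosa26Dach1/+, so that it carried the same silent Rosa26 allele and no Cre, and the Rosa26Dach1 line was of mixed C57Bl/6J and CD1 background. AD1 OE animals die around the time of birth. The study gives the number of embryos sequenced per group, and it equals the number of libraries. Each library is therefore read here as an embryo of its own. Each group had 4 libraries with between 22339059 and 44025625 counts. Dach1 itself checked the labels, with 91.5 to 102.2 CPM in AD1 OE and 30.2 to 33.7 CPM in Control, where CPM are counts scaled to library size and composition. The ganglia held strong levels of their defining neuronal genes, since the summed level of 10 sensory neuron markers was 10180 to 10790 CPM in AD1 OE and 10490 to 10910 CPM in Control.

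The coding sequences were compared first, because reads of similar genes can be credited to the wrong one. Nell1 (ENSMUSG00000055409) lies on the plus strand of chromosome 7, at chr7:49974864-50866608 in GRCm38, and its principal transcript has 20 exons and 810 codons. Nell2 (ENSMUSG00000022454) lies on the minus strand of chromosome 15, at chr15:95075230-95528559, with 21 exons and 819 codons. These positions belong to an older build than the GRCm39 genome used for the counts. Of 2402 aligned coding bases, 63.9% were identical. The longest run of bases that any annotated transcripts of the genes share was 15. The most similar ungapped stretch of 60 coding bases, with 50 identical, is shown because it is where confusion of reads would be most likely. It lies in exon 16 of Nell1 (coding bases 1695 to 1754, chr7:50826309-50826368, plus strand) and exon 17 of Nell2 (coding bases 1722 to 1781, chr15:95241569-95241628, minus strand), within the part that encodes the EGF-like repeats. Capitals mark bases that are the same in both genes and small letters mark those that differ, read 5′ to 3′.
Nell1: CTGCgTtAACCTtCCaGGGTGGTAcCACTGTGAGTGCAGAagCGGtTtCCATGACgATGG
Nell2: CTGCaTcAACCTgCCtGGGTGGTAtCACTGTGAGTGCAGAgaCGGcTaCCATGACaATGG
Even in this stretch the differing bases recur along its length. Other annotated genes overlap the introns of both members, but none shares an exon base with either.

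Nell1 was the member that fell. It was at 53.9, 56.3, 54.9 and 58.7 CPM in Control replicates 1 to 4. In AD1 OE replicates 1 to 4 it was at 18.0, 19.2, 17.7 and 21.9 CPM. The groups stood far apart, since the highest AD1 OE library lay well under the lowest Control library. Control averaged 56.0 ± 2.06 CPM and AD1 OE averaged 19.2 ± 1.91 CPM (SD, n = 4 each), so that AD1 OE held 34.3% of the Control level. The fit gave -1.55 ± 0.07 (log2 fold change and SE, as in all values written this way), with a 95% confidence interval from -1.69 to -1.40. Of 316 genes called lower, 30 had a log2 fold change at or below that of Nell1, itself included. Over all 17721 tested genes, 52 did. Nell1 was chosen on this contrast, so nothing is read from this rank. The confidence interval takes no account of that choice and is given only as a description.

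Nell2 did not follow. Its levels were 79.7, 79.3, 73.2 and 77.2 CPM in Control replicates 1 to 4 and 80.7, 72.0, 79.8 and 73.8 CPM in AD1 OE replicates 1 to 4. The libraries of the groups were interleaved, with both the highest and the lowest of the 8 values in AD1 OE. Control averaged 77.4 ± 2.99 CPM and AD1 OE averaged 76.6 ± 4.29 CPM (SD), and the fit gave -0.01 ± 0.05. The 95% confidence interval from the fit ran from -0.12 to 0.09 on the log2 scale, which corresponds to between 0.923 and 1.06 times the Control level. Of the members, 1 of 2 (Nell1) met the call used for this comparison in the study, an adjusted p under 0.005 with an absolute log2 fold change over 0.25, a call that 2.57% of all tested genes met. The rule behind the choice of members used this contrast, so nothing is read from that count.

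**Figure D1:**
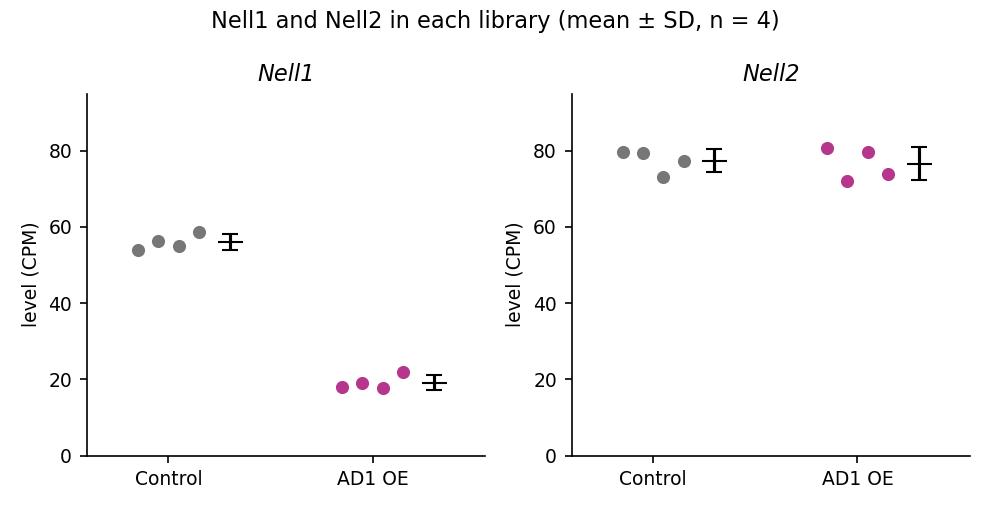
Level of Nell1 and Nell2 in CPM (vertical axis, from 0) in each Control and AD1 OE library, 1 point per library, with the mean and SD (n = 4) beside the points. Nell1 lies between 53.9 and 58.7 CPM in Control and between 17.7 and 21.9 CPM in AD1 OE, while the Nell2 points of the groups overlap.

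Both members were measured precisely. The 8 libraries held 430 to 2077 counts of Nell1 and 1617 to 3570 counts of Nell2. Between Control libraries, the coefficient of variation was 3.69% for Nell1 and 3.87% for Nell2, against 2.54% and 2.16% from counting alone. In AD1 OE it was 9.93% for Nell1 and 5.61% for Nell2, against 4.30% and 2.16% from counting. Replicate 4 held the most Nell1 in either group, and the fall was the steeper, at -1.61, without AD1 OE replicate 4. Because whole ganglia were sequenced, fewer cells that express Nell1 and less Nell1 RNA per cell cannot be told apart.

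Levels of different genes were compared per length of annotated exon, since long transcripts yield more reads. In Control, Nell2 was at 16.6 ± 0.641 CPM per kb and Nell1 at 7.70 ± 0.284 CPM per kb, a ratio of Nell2 to Nell1 of 2.15 ± 0.116 (SD, n = 4). In AD1 OE, Nell2 was at 16.4 ± 0.919 CPM per kb and Nell1 at 2.64 ± 0.262 CPM per kb, and the ratio was 6.28 ± 0.870. The ratio ran from 2.05 to 2.30 over the Control libraries and from 5.26 to 7.03 over the AD1 OE libraries. Nell2 was thus the more abundant member in each of the 8 libraries. As a share of both, Nell1 made up 31.7% in Control and 13.9% in AD1 OE, and the sum of both fell from 24.3 ± 0.702 to 19.0 ± 0.763 CPM per kb. The annotated exons of Nell1 include a 3′ untranslated region of 3659 bases, against 654 bases in Nell2, and with the length of the principal transcript alone the ratios were 2.84 and 8.29.

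**Figure D2:**
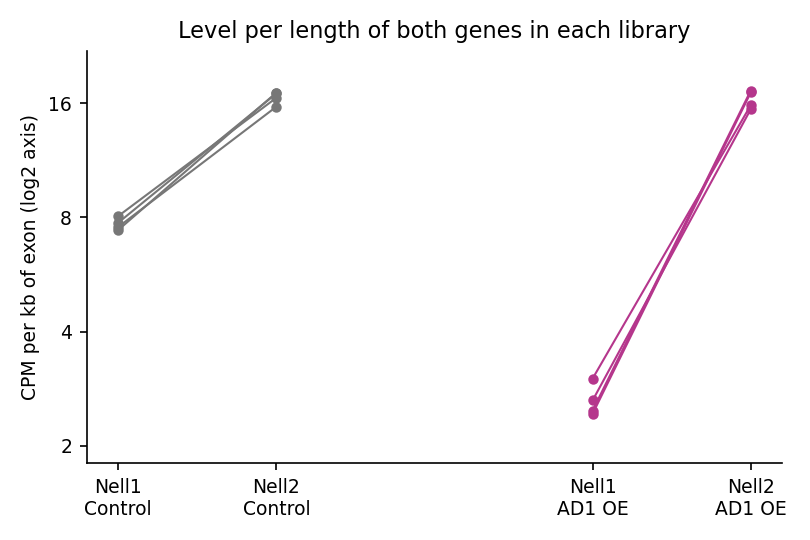
CPM per kb of annotated exon (log2 axis) of Nell1 and Nell2, where each line joins both genes of 1 library. The Nell2 ends of the groups overlap, and the Nell1 ends are lower in AD1 OE, at 2.43 to 3.01 CPM per kb against 7.41 to 8.07 in Control.

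The groups differed in the sex of their embryos, read from Xist and Y-linked transcripts because no label gives it. AD1 OE held 3 male and 1 female libraries and Control held 1 male and 3 female libraries. In females, Nell1 was at 17.7 CPM in the AD1 OE library and at 55.1 CPM in the mean of the Control libraries. In males it was at 19.7 CPM in the mean of the AD1 OE libraries and at 58.7 CPM in the Control library. AD1 OE thus held 32.1% of the Control level in females and 33.6% in males, and for Nell2 it held 103.0% and 97.8%. The difference between these changes, tested as an interaction over all tested genes, was 0.06 (log2, standard error 0.14) for Nell1 and -0.07 (standard error 0.11) for Nell2 (edgeR adjusted p = 0.995 and 0.992). The difference between males and females at equal genotype was 0.12 (standard error 0.07) for Nell1 and -0.04 (standard error 0.06) for Nell2 (edgeR adjusted p = 0.793 and 0.921). These tests were added after the data were seen and rest on 1 female AD1 OE and 1 male Control library.

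Among described binding partners of the NELL proteins, 2 fell in AD1 OE. Of 19 listed partners, guidance genes and regulators, 18 were matched to a counted gene and 16 passed the expression filter. By the quasi-likelihood test of edgeR, 2 of the 16 were called, both lower, against 1.78% of all tested genes called lower and 0.784% called higher. The groups did not overlap for 5 of the 16, against 13.0% of all tested genes. The median log2 fold change of the 16 was -0.10, against 0.002 for all tested genes, and 12 of the 16 were below 0. The list was written with earlier results of these data known.

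Robo2, an axon guidance receptor that binds Slit proteins and Nell2, was at 157, 176, 177 and 172 CPM in Control replicates 1 to 4. In AD1 OE replicates 1 to 4 it was at 129, 124, 122 and 120 CPM. All AD1 OE libraries lay below all Control libraries. The fit gave -0.46 ± 0.04 (edgeR adjusted p = 3.33e-05), which leaves 0.726 times the Control level.

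Cntnap4, a contactin-associated adhesion protein of neurons described as a Nell1 receptor, was at 130, 137, 130 and 128 CPM in Control replicates 1 to 4. In AD1 OE replicates 1 to 4 it was at 107, 98.6, 93.2 and 107 CPM. Here too the groups did not overlap. The fit gave -0.37 ± 0.05 (edgeR adjusted p = 0.000472). Cntnap4 shares 503 exon bases with the antisense gene Gm45904, whose mean level was 1.81 CPM in Control and lower than that in AD1 OE. Both Robo2 and Cntnap4 were called in each of 13 alternative fits.

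Robo3, the receptor through which Nell2 acts on commissural axons, was hardly detected, with 2 to 17 counts in AD1 OE libraries and 5 to 8 counts in Control libraries. It did not pass the expression filter. Ros1, a receptor tyrosine kinase described as a target of Nell2 in the epididymis, was likewise not tested, at 0.0219 CPM in Control. Robo1, another Slit receptor, averaged 55.3 ± 5.75 CPM (SD) in Control against 53.9 ± 3.82 CPM, with a fitted difference of -0.04 ± 0.07 (edgeR adjusted p = 0.845). Itgb1, which encodes integrin beta1, averaged 573 ± 9.23 CPM (SD) in Control against 580 ± 35.0 CPM, with a fitted difference of 0.02 (edgeR adjusted p = 0.898) with a 95% confidence interval from -0.09 to 0.12. Atraid, a membrane protein that binds Nell1, had a log2 fold change of -0.09 (edgeR adjusted p = 0.297). It shares 396 exon bases with Slc5a6 on the opposite strand, so its count is uncertain to that extent.

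**Figure D3:**
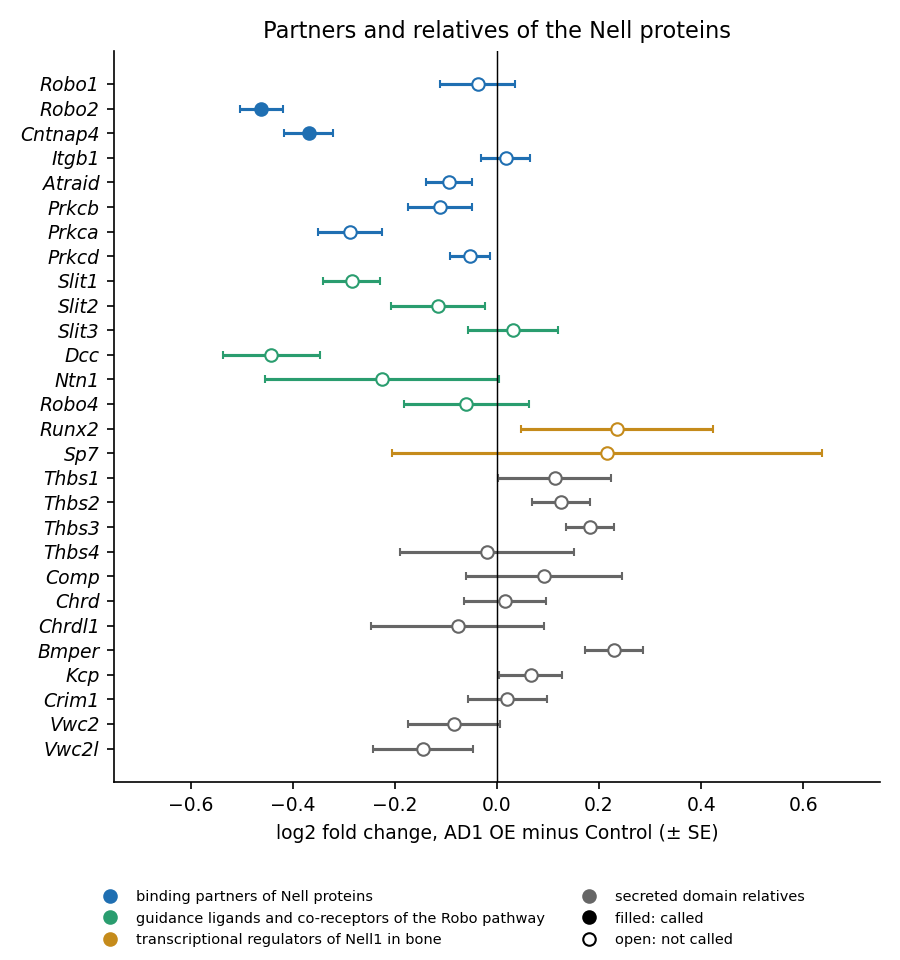
Log2 fold change of AD1 OE minus Control (horizontal axis, bars are the standard error) for the 16 tested partner, guidance and regulator genes and for 12 secreted proteins with related domains. Filled points mark the called genes, Robo2 and Cntnap4, which lie at -0.46 and -0.37.

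A further 3 genes of the list, named here after their values were seen, had separate groups without meeting the call. Prkca, one of the protein kinases C to which NELL proteins were first found to bind, ran from 389 to 461 CPM over the Control libraries and from 323 to 379 CPM over the AD1 OE libraries (log2 fold change -0.29, edgeR adjusted p = 0.0161). Slit1, a Robo ligand, ran from 59.7 to 66.1 CPM and from 49.4 to 57.6 CPM (log2 fold change -0.28, edgeR adjusted p = 0.00897). Dcc, the netrin receptor, ran from 7.11 to 8.98 CPM and from 5.52 to 6.12 CPM (log2 fold change -0.44, edgeR adjusted p = 0.0147). Their calls depended on the settings. DESeq2, the tool of the study, called all 3, and the fit without an expression filter called Prkca and Slit1. Slit1 was also called without AD1 OE replicate 3. The other guidance genes, Slit2, Slit3, Ntn1 and Robo4, had log2 fold changes between -0.23 and 0.03 and were not called. Runx2 and Sp7, transcription factors of bone that act on Nell1 there, were at 4.23 and 2.44 CPM in Control, with log2 fold changes of 0.24 (edgeR adjusted p = 0.561) and 0.22 (edgeR adjusted p = 0.842).

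**Figure D4:**
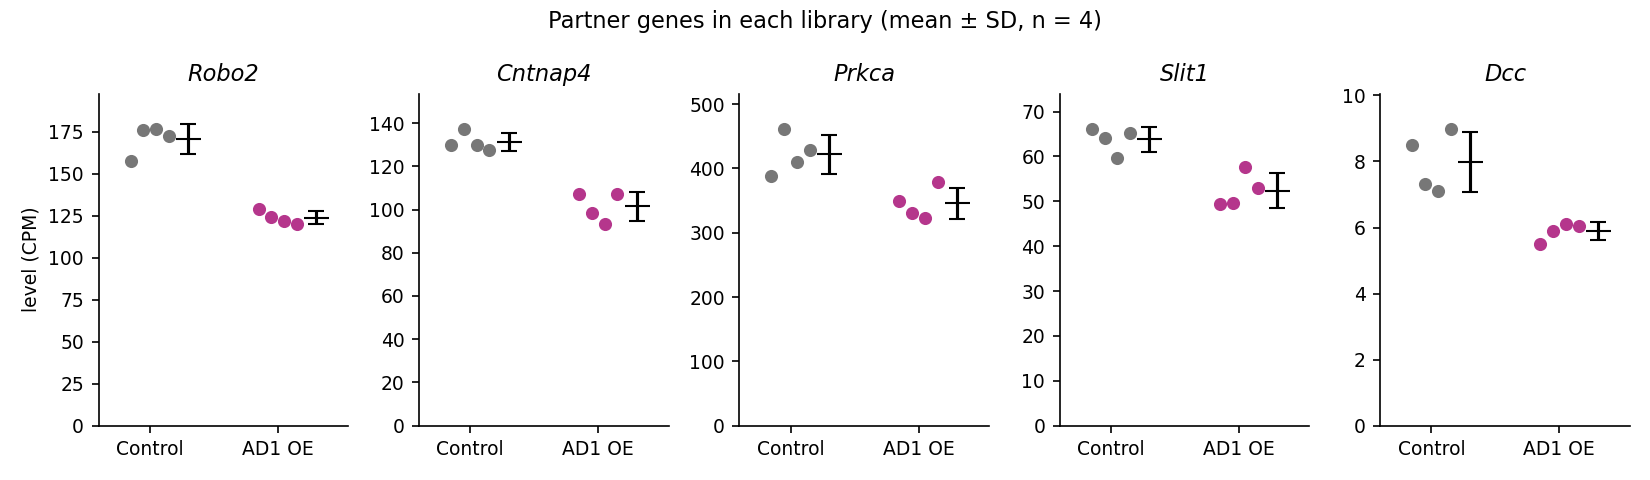
Level in CPM (vertical axes from 0) of Robo2, Cntnap4, Prkca, Slit1 and Dcc in each library, 1 point per library, with the mean and SD (n = 4). In each panel all AD1 OE points lie below all Control points, and Robo2 and Cntnap4 met the call.

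Per length, the described Nell1 partners Itgb1, Atraid and Cntnap4 lay above Nell1 in Control, and Robo2 lay below Nell2. In Control, Itgb1 stood at 140 CPM per kb of exon, Atraid at 31.5, Cntnap4 at 20.9, Robo2 at 10.04 and Robo1 at 3.35. Nell2, at 16.6 CPM per kb, ranked between Cntnap4 and Robo2, and Nell1, at 7.70, between Robo2 and Robo1. In AD1 OE, Nell1, at 2.64 CPM per kb, stood below Robo1, at 3.27 CPM per kb, and Nell2 and Cntnap4 were at 16.4 and 16.1 CPM per kb. The order of Nell2 and Cntnap4 depended on the length used, since Nell2 was at 24.0 CPM per kb of its principal transcript in Control. For the partners only the annotated exon length was used.

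Secreted proteins built from the same kinds of domains were compared with Nell1. The list held thrombospondins (Thbs1 to Thbs4 and Comp) and proteins with von Willebrand factor C domains that mostly bind BMPs (Chrd, Chrdl1, Bmper, Kcp, Crim1, Vwc2 and Vwc2l). None of these 12 tested genes was called by edgeR or by DESeq2, against 2.57% of all tested genes called by edgeR. An unadjusted p under 0.05 was reached by 2 of the 12 (Thbs3 and Bmper, edgeR adjusted p = 0.0380 and 0.0341), against 18.6% of all tested genes. For these 2 of the 12 the groups did not overlap, against 13.0% of all tested genes. The log2 fold changes of the 12 ran from -0.15 to 0.23 with a median of 0.04. Nell1, at -1.55, was chosen for its fall in this contrast, so nothing is read from its distance to these 12.

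The chromosomal surroundings of the members were examined next. The nearest tested protein-coding genes were 2 on each side, and Tmem117 overlaps Nell2 on the opposite strand. None of these 9 genes was called by edgeR or DESeq2, against 2.57% of all tested genes called by edgeR, and 2 of them (Ano5 and Slc17a6) had an unadjusted p under 0.05 in edgeR, against 18.6%. Slc6a5, the glycine transporter gene next to Nell1, had -1.42 ± 0.67 (edgeR adjusted p = 0.283). Its Control libraries ranged from 0.592 to 5.45 CPM and its AD1 OE libraries from 0.407 to 1.57 CPM, so the groups overlapped. Slc6a5 is itself one of the spinal cord markers whose levels were summed. Its highest level was in Control replicate 1, and without that library its log2 fold change was -0.69. Prmt3, which encodes an arginine methyltransferase, averaged 35.7 ± 1.41 CPM in Control against 33.9 ± 0.633 CPM in AD1 OE (SD). On the other side of Nell1, Ano5, an anoctamin gene, had -0.43 ± 0.14 (edgeR adjusted p = 0.117). Ano5 ran from 2.74 to 3.39 CPM over the Control libraries and from 1.72 to 2.54 CPM over the AD1 OE libraries. Its groups thus did not overlap, which held for 13.0% of all tested genes. Slc17a6, which encodes the vesicular glutamate transporter of these neurons, had -0.10 (edgeR adjusted p = 0.240). The antisense gene Nell1os reached at most 1 count in any library.

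**Figure D5:**
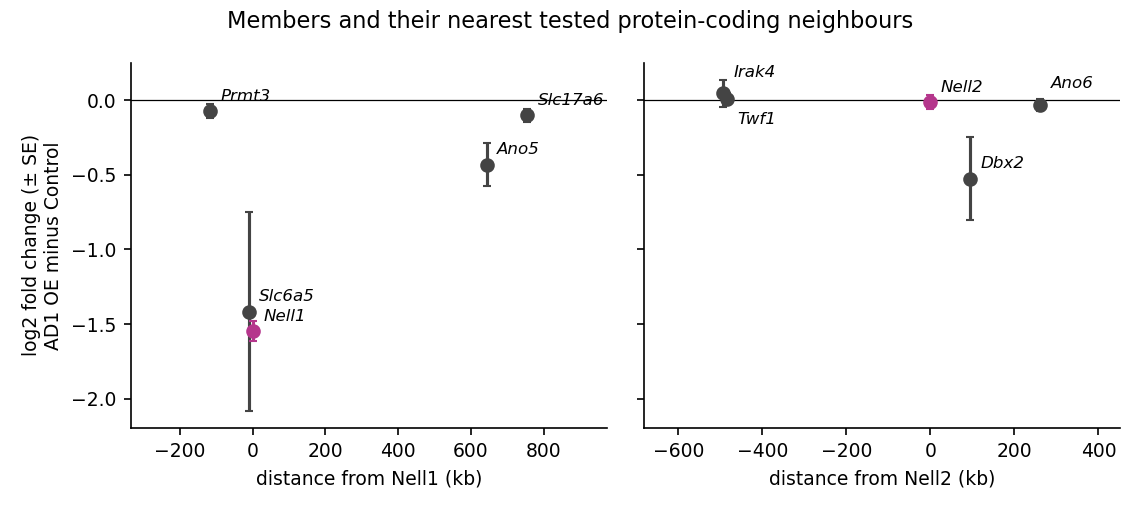
Log2 fold change of AD1 OE minus Control (vertical axis, bars are the standard error) against the distance in kb from Nell1 and from Nell2 in the GRCm38 annotation. Slc6a5, at -1.42, has the widest error of the genes plotted (0.67), and the neighbours of Nell2, apart from Dbx2 at -0.53 with a standard error of 0.28, lie between -0.03 and 0.05.

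Around Nell2, Twf1, Irak4, Ano6 and Tmem117 had log2 fold changes between -0.03 and 0.05. Dbx2, a homeobox gene of the spinal cord, ran from 0.779 to 1.71 CPM over the Control libraries, highest in replicate 1, and from 0.565 to 0.792 CPM over the AD1 OE libraries (edgeR adjusted p = 0.350).

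Genes with the profile most like that of Nell1 over the 8 libraries were sought among 13943 others, by the root mean square difference of mean-centred log2 CPM. The nearest were Layn, a hyaluronan receptor (0.114), Car8, a carbonic anhydrase-related protein (0.128), Agtr1b, an angiotensin receptor (0.128), Gadl1, an amino acid decarboxylase (0.132), and Hgf, the hepatocyte growth factor (0.141), while the median over all was 0.784. Being near Nell1 requires a similar genotype difference, and their log2 fold changes lay between -1.60 and -1.34. Hgf, for one, averaged 9.32 ± 1.03 CPM in Control against 3.07 ± 0.345 CPM in AD1 OE (SD). Nell2 ranked 6170 in this order, with a difference of 0.777. The genes nearest to Nell2 were Zdhhc8, Atxn7l3, Klf16, Mettl13 and Ext1, at differences from 0.0189 to 0.0243, and all 5 had overlapping groups, with log2 fold changes from -0.04 to 0.004.

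The levels of cell type markers are given beside the fall of Nell1. Peptidergic nociceptor markers (5 genes) summed to 797 to 817 CPM in Control, and 508 to 568 CPM in the AD1 OE libraries, 66.7% of the Control mean. Non-peptidergic nociceptor markers (6 genes) summed to 2358 to 2725 CPM in Control, and 1933 to 2159 CPM in the AD1 OE libraries, 79.1% of the Control mean. Both sums were lower in each AD1 OE library than in each Control library. Of the peptidergic markers, 4 of 5 were called lower and 1 (Gal) higher by edgeR, against 1.78% and 0.784% of all tested genes. Among the 4 was Trpm8, at -1.20, which the study names among genes with functions in thermo/nociceptors and not as a peptidergic marker. Of the non-peptidergic markers, 4 of 6 were called lower by edgeR, again against 1.78%. The other two, P2rx3 and Scn11a, were higher in every AD1 OE library without meeting the call (log2 fold changes 0.16 and 0.21, edgeR adjusted p = 0.0642 and 0.0858). The fall of the non-peptidergic sum rested on Scn10a, the most abundant gene of the list (1387 CPM in Control, 781 CPM in AD1 OE). The study describes Scn10a as a sodium channel gene of nociceptors and does not limit it to non-peptidergic ones. The other 5 genes summed to 1075 to 1247 CPM over the Control libraries and 1197 to 1301 CPM over the AD1 OE libraries, at 106.2% of the Control mean. Sums of mechanoreceptor and proprioceptor markers (7 genes, 98.0%) and of glial markers (8 genes, 97.7%) overlapped between the groups. Within the mechanoreceptor and proprioceptor list, 1 of 7 genes was called, Etv1 at -0.97 (edgeR adjusted p = 6.39e-06), against 1.78% of all tested genes called lower, and 3 of 7 had groups that did not overlap, against 13.0%. The other two of these were Ntrk3, the most abundant gene of the list, at 0.30, and Calb1 at -0.32. Without Ntrk3 the other 6 genes summed to 522 to 562 CPM over the Control libraries and 451 to 472 CPM over the AD1 OE libraries. That is 85.05% of the Control mean, and the groups did not overlap. The fall of this sum rested on Etv1, whose mean level dropped to 92.6 CPM with Dach1 switched on, from 181 CPM without. Ntrk2 was slightly higher in AD1 OE (log2 fold change 0.12), and Runx3, Pvalb, Maf and Calb1 had log2 fold changes between -0.32 and -0.04. None of the 8 glial genes was called by edgeR, against 2.57% of all tested genes. An unadjusted p under 0.05 was reached by 1 (Fabp7, at -0.26), against 18.6%. The genes of this paragraph other than the lists themselves were named after their values were seen.

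Tissues that lie against the ganglia and can express NELL genes were checked in the same way. Spinal cord markers (9 genes, none at 0 in all libraries, with Mnx1, Chat and Lhx5 below 1 CPM in every library) summed to 15.8 to 31.9 CPM in Control, and 17.0 to 19.7 CPM in the AD1 OE libraries. Most of this sum was Slc5a7, with a mean of 14.6 CPM over Control and 14.97 CPM over AD1 OE. The other 8 genes summed to 1.87 to 15.4 CPM over the Control libraries, highest in replicate 1, and 2.05 to 4.59 CPM over the AD1 OE libraries. The 5 of them that were tested all had log2 fold changes below 0, from -1.45 to -0.75 with a median of -1.38. None of the 5 was called by edgeR, against 2.57% of all tested genes, and 2 had an unadjusted p under 0.05, against 18.6%. Without Control replicate 1 their median was -0.69, and the log2 fold change of Nell1 was -1.56. Cartilage and bone markers (9 genes) summed to 89.8 to 169 CPM in Control, and 77.5 to 181 CPM in the AD1 OE libraries. None was at 0 in all libraries, and Bglap was below 1 CPM in every library. By edgeR, none of the 8 tested was called, against 2.57% of all tested genes. An unadjusted p under 0.05 was reached by 3 (Acan at -2.32, Matn3 at 0.75 and Col10a1 at -0.53), against 18.6%. Skeletal muscle markers (5 genes) summed to 92.4 to 252 CPM in Control, and 72.8 to 385 CPM in the AD1 OE libraries. Fibroblast markers (5 genes) summed to 3489 to 4203 CPM in Control, and 4107 to 4546 CPM in the AD1 OE libraries. Their log2 fold changes ran from -0.15 to 0.23, and 0 were called by edgeR, against 2.57% of all tested genes. Of these 5 genes, 3 had an unadjusted p under 0.05, against 18.6% of all tested genes. The groups did not overlap for 1 of them, against 13.0%. The part of any of these cell types in the result was not tested.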

How the data were processed

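Per the labels and the methods of the study, the authors prepared stranded poly(A) libraries from 8 samples of E18.5 DRG, aligned reads (submitters' processing notes) to GRCm39 with STAR 2.7.8a and counted them per gene with featureCounts 2.0.1. Whether counting used the strand is not given in the sources used here. The deposited values are raw counts, 1 file per library, each with 55414 genes and 0 lines that name no gene. Groups and replicate numbers came from the titles.

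The counts went through edgeR 4.0.16 under R 4.3.3 (filterByExpr, TMM, quasi-likelihood F test, Benjamini-Hochberg adjustment over 17721 genes). CPM used TMM-scaled library sizes, and log2 CPM a prior count of 2. Standard errors were taken from the F statistic. The test was checked on simulated data. DESeq2 1.42.0, RLE scaling, no filter, a replicate block, a sex term and leaving out each library were alternatives, and the sex interaction was added after the data were seen. Correlations of deviations ran from -0.0541 to 0.313 between same-numbered libraries and from -0.319 to 0.225 between different-numbered ones. These values do not settle whether libraries were paired. Names (52081 genes), exon lengths, overlaps and transcripts came from GENCODE M21 on GRCm38. Of 94 listed symbols, 93 matched; Nicol1 was not analysed. p-values measure only the spread between these libraries.

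Members and lists were chosen with earlier results of these data known. Named were the members, Dach1, called list genes, 6 fixed partners, the neighbours and overlapping genes, and the 5 nearest profiles; other names are given as chosen after their values were seen.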

Additional observations from a re-analysis of the deposited data

Results flagged for a closer look

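In 5 of 78 groups of 4 libraries, among the members, the listed genes and the neighbours, 1 library stood apart from the other 3 by Dixon's criterion, which chance gives for about 1 in 20 groups. Neither Nell1 nor Nell2 was among them. Thbs4 was at 22.7 CPM in AD1 OE replicate 4, with the other AD1 OE libraries at 30.8 to 31.2 CPM. Chrd was at 9.35 CPM in Control replicate 3, with the others at 10.6 to 10.7 CPM. Vwc2 was at 7.92 CPM in AD1 OE replicate 3, with the others at 6.56 to 6.66 CPM. Irak4 was at 4.64 CPM in Control replicate 3, with the others at 5.14 to 5.18 CPM. Dbx2 was at 1.71 CPM in Control replicate 1, with the others at 0.779 to 0.865 CPM.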

How the results depend on the processing

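Over 13 alternative fits of the same values, the log2 fold change ran from -1.61 to -1.50 for Nell1, which was chosen on this contrast, and from -0.04 to 0.02 for Nell2. The replicate block rests only on the number in the titles. With it, the log2 fold changes were -1.55 for Nell1 and -0.02 for Nell2, and 2 partner genes and 348 genes in all were called. The partner count of 2 became 5 with DESeq2, 4 without the expression filter and 5 when the adjusted p had to be under 0.05 whatever the fold change, and it ran from 2 to 3 in the 8 fits without 1 library. Robo2 and Cntnap4 were in each of these counts. Relatives and neighbours stayed at 0 calls in the 13 alternative fits. The looser threshold was not run for them, and the relatives Thbs3 and Bmper were under it (edgeR adjusted p = 0.0380 and 0.0341). The count over all tested genes, 455, became 659 with DESeq2, 747 without the expression filter and 1161 at the looser threshold. It ran from 289 (without AD1 OE replicate 1) to 420 without 1 library. The cause was not tested. Robo3 and Ros1 were removed by the expression filter at mean levels of at most 0.227 and 0.0451 CPM.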
